A study of Mus musculus with 12 samples.

Results

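The enzymes of glycolysis and the lactate dehydrogenases were compared between the retinal pigment epithelium (RPE) of 1-mo WT and rd6 mice. The set held 10 enzymes, namely the hexokinases *Hk1* and *Hk2*, *Gpi1*, *Pfkl*, *Aldoa*, *Gapdh*, *Pgk1*, *Pkm*, *Ldha* and *Ldhb*, chosen by gene symbol from a table of 28591 genes. These 10 symbols stood on 11 entries, because a neighboring gene model also carries the name *Aldoa*. That model had a mean of 6.89 normalized counts and did not reach the mean of 10 required for testing, so 10 of the 11 entries were tested among 17768 genes. Each group held 6 mice, WT mice of the C57BL/6J strain and mice homozygous for the rd6 allele of *Mfrp*, and 1 total-RNA library was made per mouse from the RPE of both eyes. The normalized count of a gene is its number of reads divided by the size factor of the library, and every change below is rd6 minus WT on the log2 scale with 1 added to each value.

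Glycolysis splits glucose into pyruvate in the cytosol and yields ATP and NADH, and lactate dehydrogenase turns pyruvate into lactate and back while exchanging NADH for NAD+. Photoreceptors are strongly glycolytic and release lactate, whereas the RPE is thought to spare glucose for the photoreceptors and to take up and burn the lactate they release. *Gapdh* encodes one of the enzymes of this pathway and is also a common reference gene for relative expression, so its level bears both on the pathway and on any value scaled to it.

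Of the 10 enzymes, 4 rose in rd6 RPE at q < 0.05 and 0 fell, in limma with Benjamini-Hochberg adjustment over all genes tested. The 4 were *Gapdh*, *Pgk1*, *Ldha* and *Ldhb*, which catalyze steps between the oxidation of glyceraldehyde phosphate and lactate. *Pkm*, the other enzyme of the set in that stretch, did not pass (0.07, q = 0.427). Among all genes tested, 11.4% were called higher and 11.6% lower. None of the 10 enzymes passed the study's further limit on fold change, which 4.69% of all genes passed upward and 2.12% downward. The estimate was positive for 9 of the 10 enzymes and negative for *Pfkl*, and their median change was 0.19, beside a median of 0.0049 over all genes.

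The 12 libraries held 28907262 to 33152725 reads on genes. *Mfrp*, the gene mutated in rd6, ranged from 30132 to 45442 normalized counts in WT and from 20442 to 29732 in rd6 libraries, with no overlap. Of 12 RPE markers, *Ttr*, *Rgr* and most others were abundant in both groups, *Best1* had means of only 19.2 and 29.2 normalized counts, 4 fell and 0 rose in rd6. Markers of other cells were present too and differed between the groups. Of 17 rod markers, 17 had a lower estimate in rd6 and 5 passed the test, and their summed level was 77644 to 119595 in WT and 43275 to 90132 in rd6. Of 10 skeletal muscle markers, 7 rose in rd6, and their summed level was 20650 to 79351 in WT and 72292 to 105256 in rd6. Microglia and macrophage markers rose for 14 of 15 genes and endothelium markers for 8 of 10. WT replicate 4 lay farthest from its group, and rd6 replicate 5 had a rod score, the mean log2 level of the rod markers, of 11.4 against 9.68 to 10.1 in the other rd6 libraries. In bulk tissue, fewer cells of a type and less RNA per cell cannot be told apart.

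The first steps of the pathway trap glucose as glucose 6-phosphate and split the sugar. *Hk1*, the housekeeping hexokinase, had a lowest, median and highest normalized count of 5108, 6101 and 6662 in WT and of 6168, 6465 and 6768 in rd6. The groups overlapped, with 2 of 6 rd6 libraries above the highest WT library, and the change was 0.10 with a 95% interval of -0.03 to 0.23 (q = 0.263). *Hk2*, the insulin-responsive hexokinase of muscle and of photoreceptors, ran from 258 through a median of 380 to 505 in WT and from 304 through 550 to 864 in rd6. Relative to the mean, its rd6 libraries spread more widely than those of the other 9 enzymes, with an SD of 32.6% of the mean against 3.36% to 11.8%. They averaged 562 ± 183 normalized counts (SD, n = 6) against 381 ± 108 in WT, and 4 of 6 exceeded the highest WT library. The change of *Hk2* was 0.54 with an interval of 0.03 to 1.06 and did not pass the test across genes (q = 0.120). Without rd6 replicate 6, which had the lowest rd6 value, it was 0.71 (q = 0.0313).

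*Gpi1*, which isomerizes glucose 6-phosphate to fructose 6-phosphate, averaged 6950 ± 335 in WT and 7265 ± 555 in rd6 libraries (normalized counts, n = 6 each), a change of 0.06 with an interval of -0.06 to 0.18 (q = 0.460). *Pfkl*, the liver-type subunit of phosphofructokinase, which catalyzes the committed step, was the only enzyme of the set with a negative estimate. Its lowest, median and highest values were 6311, 8228 and 8545 in WT and 5873, 6462 and 8106 in rd6. The lowest WT value belonged to replicate 4 and the highest rd6 value to replicate 6, and these 2 libraries made the groups overlap. The change of *Pfkl* was -0.24 (SE 0.09, q = 0.0645). Without WT replicate 4 it was -0.31 (q = 0.00787), without rd6 replicate 6 it was -0.30 (q = 0.0210), and DESeq2 on the recovered reads gave an adjusted p of 0.0443. *Aldoa*, the aldolase that splits fructose bisphosphate, was the most abundant enzyme, with 49344 ± 5567 normalized counts in WT and 50733 ± 3883 in rd6 (n = 6 each). Its change was 0.04 with an interval of -0.14 to 0.23 (q = 0.745).

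**Figure D1:**
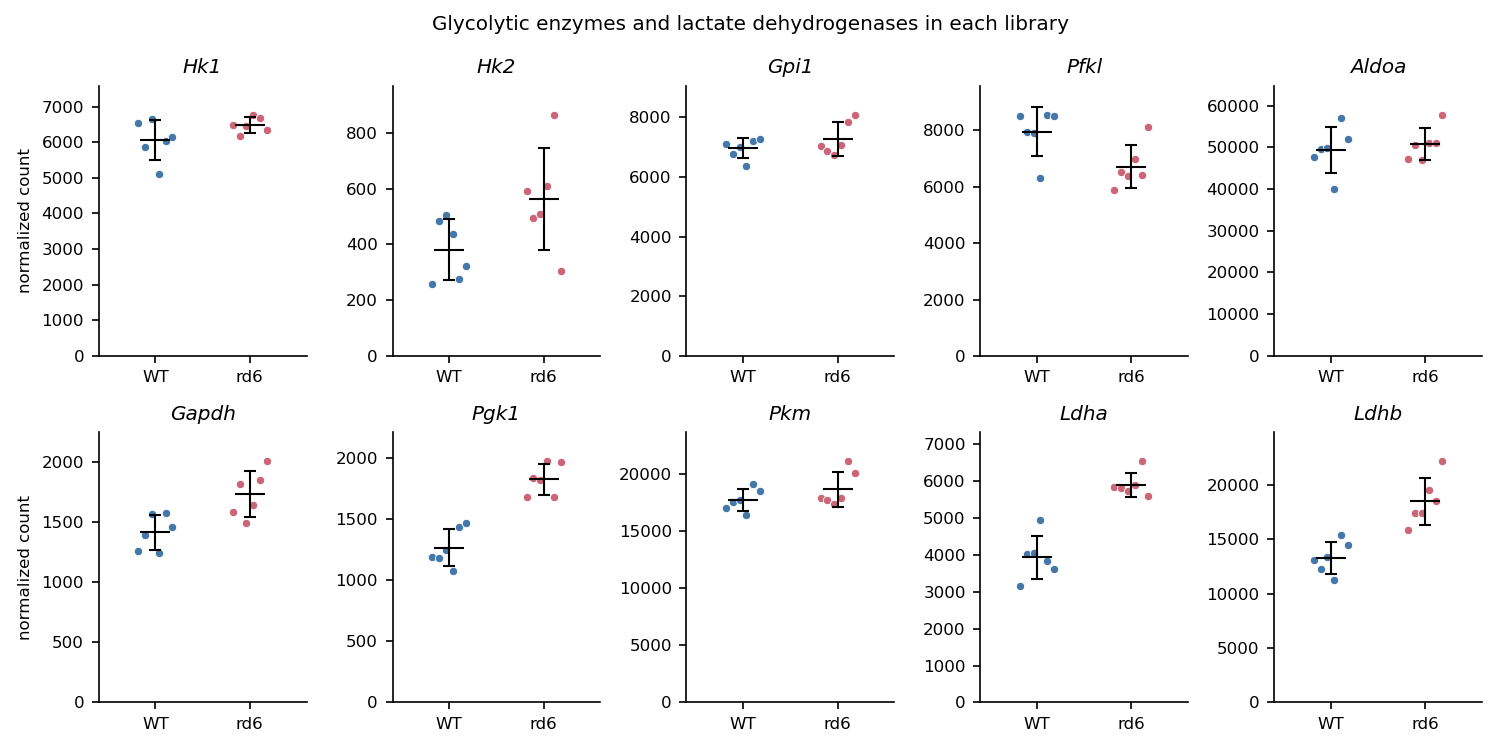
Normalized count (linear axis from 0) of each of the 10 enzymes in the 6 WT (blue) and 6 rd6 (red) libraries, with the mean and SD in black. For *Pgk1*, *Ldha* and *Ldhb* all 6 rd6 libraries lay above all 6 WT libraries, whereas the groups overlapped for the other 7 enzymes.

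In the later steps, *Gapdh* encodes glyceraldehyde 3-phosphate dehydrogenase, which makes the first NADH of the pathway (chr6:125161715-125166467, minus strand, GRCm38). Its lowest, median and highest normalized counts were 1238, 1425 and 1575 in WT and 1494, 1724 and 2002 in rd6. Of the 6 rd6 libraries, 5 lay above the highest WT library and 1 fell within the WT range. The means were 1415 ± 145 and 1728 ± 191 (SD, n = 6 each), a rise of 0.29 (SE 0.08, q = 0.0265), or 1.22-fold. The call was lost when any of 5 libraries was left out, with q = 0.0597 without WT replicate 1, 0.0521 without WT replicate 2, 0.0572 without rd6 replicate 2, 0.0506 without rd6 replicate 5 and 0.0553 without rd6 replicate 6, while the change stayed between 0.24 and 0.33 over all 12 such fits.

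*Pgk1* encodes phosphoglycerate kinase, which makes the first ATP of the pathway (chrX:106187100-106203699, plus strand). It had 1075, 1218 and 1465 normalized counts as lowest, median and highest WT values and 1681, 1826 and 1973 as the rd6 values. The lowest rd6 value exceeded the highest WT value, which was the case for 5.77% of all genes tested, while 5.67% lay wholly below WT in rd6. *Pgk1* rose by 0.53 (SE 0.08, q = 0.000378), 1.45-fold, and its lowest change without any 1 library was 0.49. *Pkm*, pyruvate kinase, which makes pyruvate, averaged 17742 ± 983 in WT and 18698 ± 1538 in rd6 libraries (normalized counts, n = 6 each), a change of 0.07 with an interval of -0.06 to 0.21 (q = 0.427).

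Both lactate dehydrogenase subunits rose. *Ldha* encodes the subunit that predominates in muscle and other glycolytic tissue (chr7:46841475-46855627, plus strand), and *Ldhb* the subunit that predominates in heart and other lactate-consuming tissue (chr6:142490249-142507957, minus strand). *Ldha* ran from 3154 through a median of 3930 to 4937 in WT and from 5597 through 5834 to 6539 in rd6. The highest of these, rd6 replicate 5, was the library with the most rod RNA of its group. *Ldha* rose by 0.60 (SE 0.09, q = 0.000351), or 1.51-fold, the largest change among the 4 called enzymes. *Ldhb* ran from 11270 through 13204 to 15342 in WT and from 15848 through 17949 to 22144 in rd6. Here too the groups did not overlap, and *Ldhb* rose by 0.47 (SE 0.09, q = 0.00221), or 1.39-fold.

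Because both subunits rose, their balance was compared directly, as 1 of 3 ratios between isozymes that were all chosen after the values were seen. The ratio of *Ldha* to *Ldhb* was 0.302 ± 0.075 in WT and 0.323 ± 0.041 in rd6 (n = 6 each), a log2 difference of 0.12 (two-sided exact permutation test, p = 0.424). The ratio of *Hk2* to *Hk1* was 0.0636 ± 0.0201 in WT and 0.0863 ± 0.0263 in rd6, a log2 difference of 0.44 (exact permutation test, p = 0.121). The ratio of the phosphofructokinase subunits pairs the enzyme with the negative estimate with a gene already seen to rise, so it is a description with no test. *Pfkl* exceeded *Pfkm*, the muscle-type subunit, 2.06 ± 0.21-fold in WT and 1.33 ± 0.22-fold in rd6, a log2 difference of -0.64. *Pfkm* itself rose by 0.40 (q = 0.00608), and with the mean level of skeletal muscle markers as a further term it was at 0.33 (q = 0.141). The platelet-type subunit *Pfkp* changed by 0.10 (q = 0.287).

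The positions of the 10 enzymes on the scale of level per length differed widely. Per kb of the principal transcript, mean WT levels ran from 32657 normalized counts for *Aldoa* through 10196 for *Ldhb* and 7295 for *Pkm* to 69.1 for *Hk2*. *Gpi1* (2410 ± 116), *Ldha* (2229 ± 335) and *Pfkl* (2132 ± 229) were neighbors that did not differ beyond their spread in WT. *Gapdh* had rank 8 at 996 per kb and *Pgk1* rank 9 at 694 per kb, although both are counted among the abundant glycolytic mRNAs. Per kb of all annotated exons the order of these last turned, with *Pgk1* at 564 (rank 8) and *Gapdh* at 342 (rank 9). Of the 100-base windows of their principal transcripts, 78.0% for *Gapdh* and 67.0% for *Pgk1* also occurred in another gene, against at most 8.80% for each of the other 8.

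Reads that fit several places of the genome can be counted at any of them. To show how far this concerns *Gapdh*, windows of 100 bases, the length of a read, were cut from its coding sequence and searched in all annotated transcripts. All 900 windows of the 999 coding bases were found unchanged in at least 7 and in up to 40 of 82 near copies, all of them at other loci. The table lists 132 near copies of *Gapdh*, and these 82 are the ones that share at least 1 such window with it. The window within 1 exon that most copies share lies in exon 4 at chr6:125162901-125163000 and was found in 37 copies, and the one that fewest share lies in exon 5 at chr6:125162609-125162708 and was found in 9 copies. Both windows are shown in the sense direction, from GENCODE M21 transcripts on GRCm38, in lower case throughout because no base differs from the copies counted.
Gapdh, exon 4: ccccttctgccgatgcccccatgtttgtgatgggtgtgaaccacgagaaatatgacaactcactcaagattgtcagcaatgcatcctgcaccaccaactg
Gapdh, exon 5: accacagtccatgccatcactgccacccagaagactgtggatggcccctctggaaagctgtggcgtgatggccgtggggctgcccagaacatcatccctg

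The same holds along a stretch. Bases 168 to 227 of the *Gapdh* coding sequence (exon 3, chr6:125163233-125163292) are set beside the same stretch of *Gm5559*, the copy with the highest level, and of *Gapdh-ps15*, a copy on the Y chromosome, with differences from *Gapdh* in capitals. Over the whole coding sequence *Gm5559* differs from *Gapdh* at 1 base and *Gapdh-ps15* at 5 bases.
Gapdh: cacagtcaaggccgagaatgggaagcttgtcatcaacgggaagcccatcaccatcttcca
Gm5559: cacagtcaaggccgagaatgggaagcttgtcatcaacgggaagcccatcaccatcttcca
Gapdh-ps15: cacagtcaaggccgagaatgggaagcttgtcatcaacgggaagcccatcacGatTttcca

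Many reads were counted at these copies. *Gm5559* held a mean of 9683 normalized counts over the 12 libraries, *Gm2606* 9359, *Gm12070* 6062 and *Gm7336* 5709, all processed pseudogenes, against 1571 for *Gapdh* itself. In all, 7 copies had more counts than *Gapdh*, and *Gapdh* held 2.94% to 3.39% of the counts of its family, itself and the 82 copies, in each library. The copy on the Y chromosome gave a direct measurement. In 4 libraries, 2 WT and 2 rd6, at most 5 reads fell on any of 4 Y-linked genes, yet *Gapdh-ps15* had 1476 to 1696 normalized counts there, within the 1337 to 1981 of the other 8 libraries, which had 3509 to 6429 reads on those 4 genes.

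With the counts of its near copies added, *Gapdh* rose from rank 3708 of 28591 genes to rank 43 of 28501 by mean level, and from rank 8 to rank 2 of the 10 enzymes per kb. Copies were added among the 10 enzymes only, so other genes were ranked without any copies of their own. The *Gapdh* family summed to 45484 ± 3844 in WT and 53332 ± 4071 in rd6 libraries (normalized counts, SD, n = 6 each), a rise of 0.23 (SE 0.08, q = 0.0429), with 4 of 6 rd6 libraries above the highest WT library. That call rested on single libraries, since q ran from 0.0541 to 0.0967 when any library other than WT replicate 5, rd6 replicate 1 or rd6 replicate 3 was left out. Of the 50 copies of *Gapdh* with a mean of at least 10, 47 had a positive estimate, 13 rose, 0 fell, and their median change was 0.21, beside the 11.4% higher and 11.6% lower of all genes. These copies share sequence with *Gapdh* and with one another, so the counts are not of independent genes.

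*Pgk1* held 8.39% to 9.79% of the counts of its family, with its near copies *Pgk1-rs7* on chromosome 12 at 9660 and *Gm5537* on chromosome 3 at 5819 normalized counts. With both added, the family summed to 14457 ± 1346 in WT and 19591 ± 1762 in rd6 libraries (normalized counts, n = 6 each), again without overlap, and rose by 0.44 (SE 0.08, q = 0.00121). The share held by the *Pgk1* locus was 0.09 higher in rd6 on the log2 scale (exact permutation test, p = 0.0195). For the other enzymes copies mattered less. *Ldha* held 91.6%, *Ldhb* 84.9%, *Pkm* 76.4% and *Gpi1* 65.3% of their families' counts on average, and with copies added *Ldha* rose by 0.59 (q = 0.000429) and *Ldhb* by 0.48 (q = 0.00255). No copy that shares a 100-base window was found in the table for *Hk1*, *Hk2*, *Pfkl* or *Aldoa*. *Hk1*, *Hk2*, *Gpi1*, *Aldoa* and *Gapdh* each overlap a gene on the opposite strand, *Iffo1* in the case of *Gapdh*, and *Pkm* overlaps 1 on its own strand, and the study's methods give the standard settings of Rsubread for the counting, with no setting for strand spelled out.

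**Figure D2:**
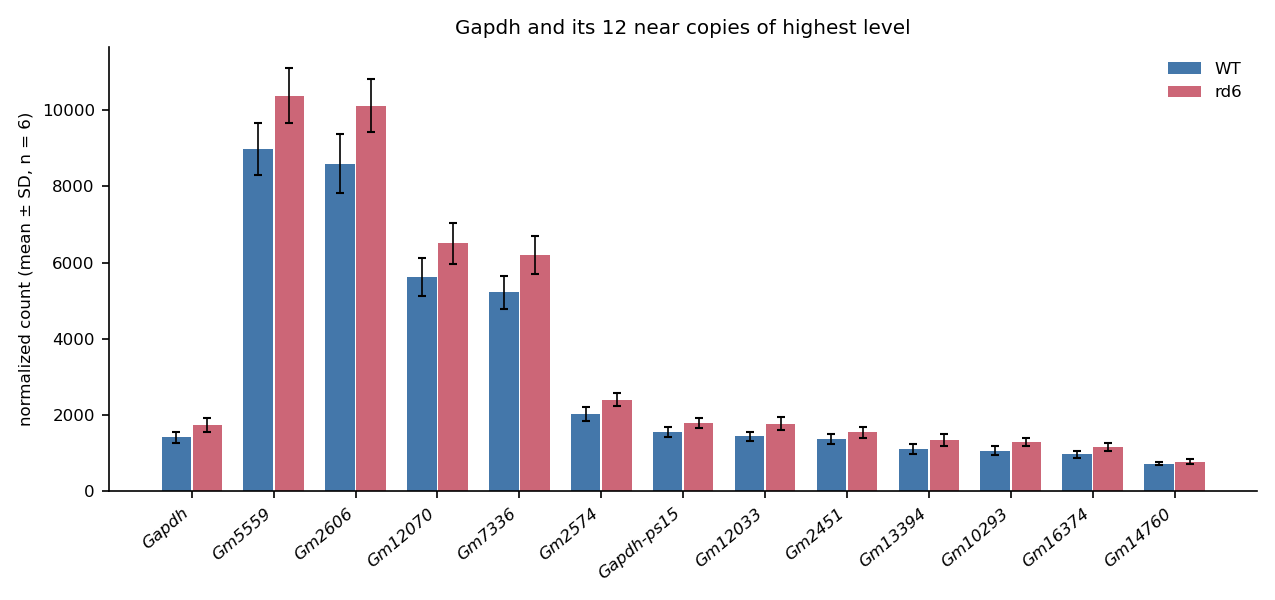
Normalized count (linear axis from 0) of *Gapdh* and of its 12 near copies with the highest level, as mean (bar) and SD (line) of 6 WT (blue) and 6 rd6 (red) libraries. *Gapdh* lies at 1415 in WT, while *Gm5559* has 9683 counts on average over all libraries, and every rd6 bar stands above its WT bar.

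Photoreceptor RNA differed between the libraries, and each enzyme was set beside it within each genotype. Across the 6 WT libraries, log2 *Hk2* and the mean log2 level of the 17 rod markers gave Pearson r = 0.98 (exact permutation p = 0.00556) and Spearman rho = 0.94 (exact p = 0.0167), and r = 0.94 without the 2 libraries farthest from the median rod score. Adjusted over the 20 relations computed, 10 enzymes in 2 genotypes, that exact p was 0.111, and 0 of the 20 passed. Within the 6 rd6 libraries the relation of *Hk2* to the rod score was r = 0.74 (exact permutation p = 0.165) and rho = 0.77 (exact p = 0.103), and r = 0.78 without the 2 farthest libraries. *Ldha* gave r = 0.74 in WT (exact permutation p = 0.0792) and r = 0.93 in rd6 (exact permutation p = 0.0625), with rho = 0.89 and 0.60 (exact p = 0.0333 and 0.242). Without the 2 farthest libraries these r were 0.61 and 0.62. *Pfkl* ran the other way, with r = -0.63 in WT and -0.29 in rd6 (exact permutation p = 0.136 and 0.479) and rho = -0.89 and -0.66 (exact p = 0.0333 and 0.175), as did *Pgk1*, with r = -0.45 and -0.63 (exact permutation p = 0.354 and 0.136) and rho = -0.31 and -0.71 (exact p = 0.564 and 0.136). Without the 2 farthest libraries r was -0.49 and -0.997 for *Pfkl* and -0.74 and -0.91 for *Pgk1*, each over 4 libraries. *Gapdh* gave r = 0.03 in WT and r = 0.14 in rd6 (exact permutation p = 0.961 and 0.889), with rho = -0.03 and -0.26 (exact p = 1 and 0.658), and its rd6 value moved to r = -0.84 without the 2 farthest libraries.

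With the rod score as a further term in limma, the change of *Hk2* was 1.10 (SE 0.18, q = 0.00121), that of *Ldha* 0.75 (q = 0.000122) and that of *Pfkl* -0.35 (SE 0.11, q = 0.0339), so that *Hk2* and *Pfkl* passed the test in this fit, in which 9.97% of all genes were called higher and 13.1% lower. *Pgk1* at 0.43 (q = 0.00587) and *Ldhb* at 0.41 (q = 0.0224) kept their calls, and *Gapdh* at 0.31 (q = 0.0634) did not. With the mean log2 level of the 10 skeletal muscle markers as the further term, *Pgk1* was at 0.47 (q = 0.0217) and *Ldha* at 0.46 (q = 0.0259), while *Ldhb* at 0.40 (q = 0.0779) and *Gapdh* at 0.10 (q = 0.609) no longer passed. In that fit 4.54% of all genes were called higher and 3.5% lower. The muscle score ran from 10.7 to 12.7 in WT and from 12.6 to 13.2 in rd6, so that it and the genotype largely moved together. The part of muscle RNA in the changes of *Gapdh* and *Ldhb* was not tested beyond this fit.

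**Figure D3:**
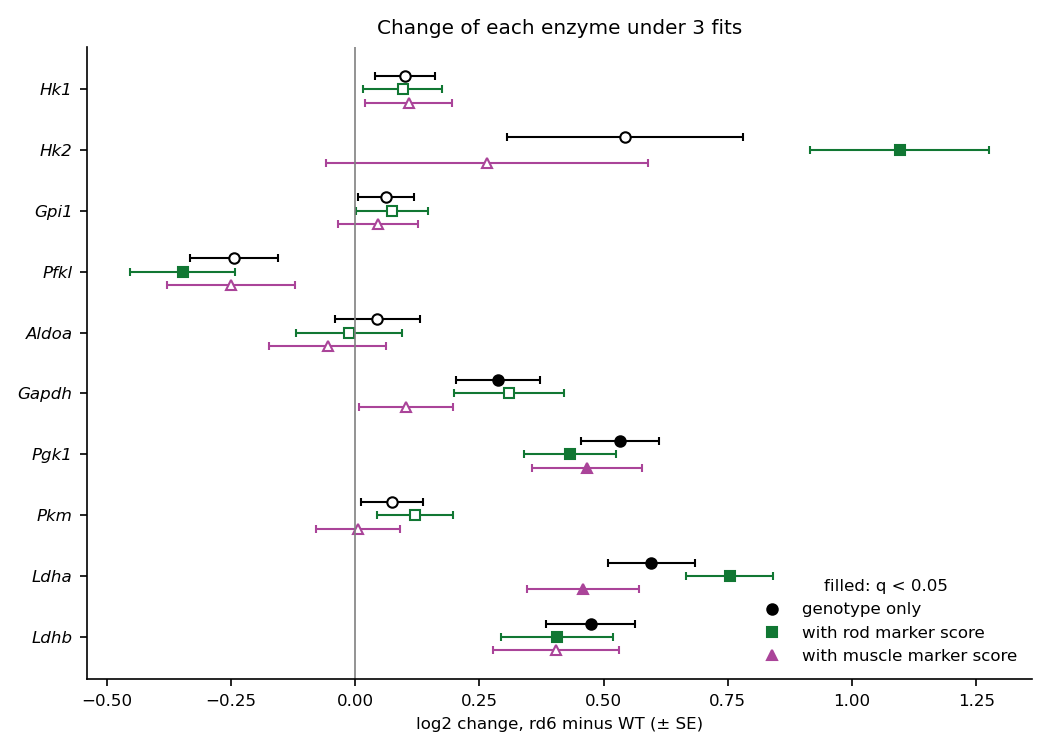
Change of each of the 10 enzymes (horizontal axis, log2, rd6 minus WT, with SE) with genotype as the only term (circles), with the rod marker score (squares) or with the muscle marker score (triangles) as a further term, filled where q < 0.05. *Pgk1* and *Ldha* are filled in all 3 fits, *Hk2* and *Pfkl* with the rod score alone, and *Gapdh* with genotype alone.

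The bearing on *Gapdh* as a reference gene was examined against 16 other genes in common use for that purpose. Of these 17, 5 rose in rd6, 29.4% beside the 11.4% called higher among all genes. The rises were *Pgk1* (0.53), *B2m* (0.46, q = 0.00246), *Gusb* (0.38, q = 0.000798), *Gapdh* (0.29) and *Sdha* (0.13, q = 0.0437). The other 12 did not pass, from *Rps18* at 0.18 and *Rplp0* at 0.16 through *Ywhaz* (0.15), *Ppia* (0.12), *Eef1a1* (0.07), *Polr2a* (-0.01), *Rpl13a* (-0.02), *Actb* (-0.06), *Hprt* (-0.10), *Tbp* (-0.14) and *Tubb5* (-0.16) to *Tfrc* at -0.17. *Actb*, with 19783 normalized counts in WT and 18994 in rd6, had an interval of -0.28 to 0.15 (q = 0.684).

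**Figure D4:**
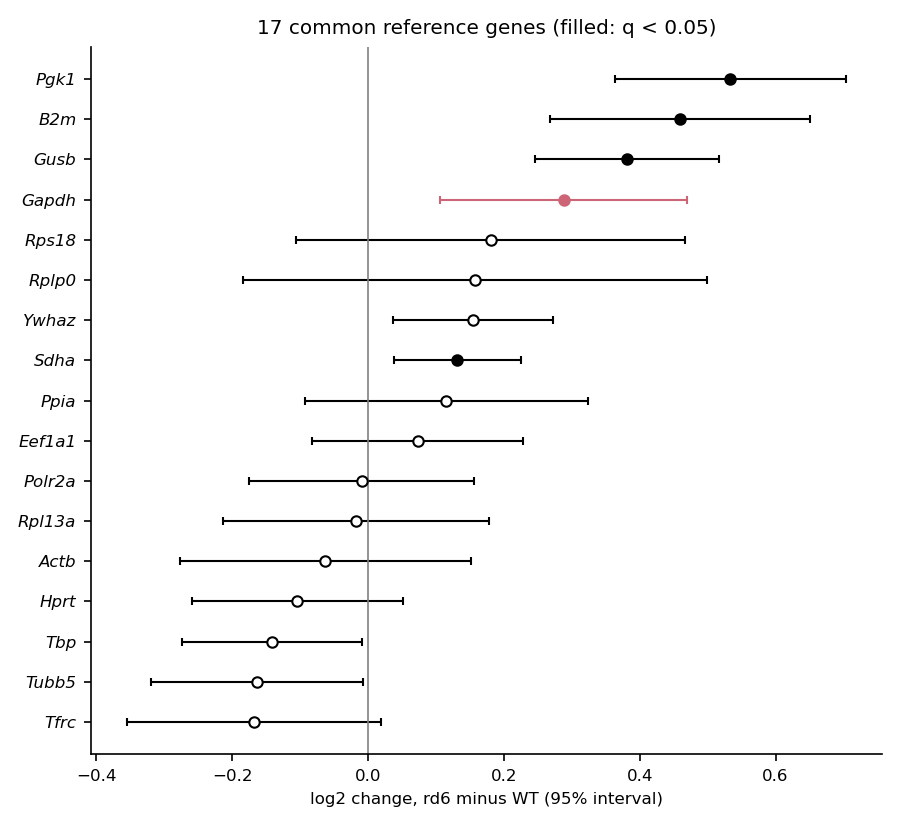
Change of 17 reference genes (horizontal axis, log2, rd6 minus WT, with 95% interval), filled where q < 0.05 and in red for *Gapdh*. *Gapdh* at 0.29 lies below *Pgk1*, *B2m* and *Gusb*, and its interval does not include 0.

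The level of *Gapdh* relative to each of the 16 others was then compared with a two-sided exact permutation test over all 924 assignments of 6 of 12 libraries, whose smallest p is 0.00216. At an unadjusted p below 0.05, *Gapdh* rose against 7 of them and fell against 1, *Pgk1*. All 16 ratios share *Gapdh* and are therefore not independent. Against *Tfrc* the rise was 0.46 (exact permutation p = 0.00649), against *Tubb5* 0.45 (exact permutation p = 0.00433) and against *Actb* 0.35 (exact permutation p = 0.0108). Against *Ppia*, *Ywhaz* and *Sdha* the estimates lay between 0.13 and 0.17, with exact permutation p from 0.0801 to 0.201. Against *B2m* and *Gusb* they were -0.17 and -0.093 (exact permutation p = 0.0931 and 0.227). Over the 12 libraries, log2 *Gapdh* had an SD of 0.21 and a highest value 1.62 times the lowest, and 74.0% of the 4787 genes within 2-fold of its mean level had a smaller SD. With near copies added the SD was 0.16, and 26.5% of 83 genes of like level had a smaller one.

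Scaling to *Gapdh*, itself 0.29 higher in rd6, turned the sign of estimates that had not passed the test. Relative to *Gapdh*, *Aldoa* (-0.24, exact permutation p = 0.00216), *Gpi1* (-0.23, p = 0.00433) and *Pkm* (-0.21, p = 0.00866) lay lower in rd6, although their normalized counts had estimates above 0, and relative to *Actb* their estimates were 0.11, 0.12 and 0.14. *Pfkl* was lower relative to *Gapdh* by a log2 difference of -0.53 (exact permutation p = 0.00216). *Pgk1* (0.25, exact permutation p = 0.0152), *Ldhb* (0.19, p = 0.0325) and *Ldha* (0.31, p = 0.0476) still lay higher. The exact p of *Ldha* exceeded 0.05 without any 1 library other than WT replicate 4 or rd6 replicate 6 (largest p = 0.0844), and that of *Ldhb* without WT replicate 2, 3 or 4 or rd6 replicate 3, 4 or 6 (largest p = 0.0628). *Hk1* (-0.19, exact permutation p = 0.0736) and *Hk2* (0.26, p = 0.398) did not pass that limit. With all genes scaled to *Gapdh* and fitted in limma, *Ldha* (q = 0.0564) and *Ldhb* (q = 0.0658) no longer passed, while *Pgk1* did (q = 0.0407).

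The same scaling moved the median change over all genes from 0.0049 to -0.28, so that the changes of *Aldoa*, *Gpi1* and *Pkm* relative to *Gapdh* were all smaller falls than that of the median gene. It turned 2024 genes higher and 2062 lower in rd6 into 803 higher (4.52%) and 6586 lower (37.1%). Scaling to *Gapdh* with its near copies gave 959 higher (5.4%) and 6063 lower (34.1%), and scaling to *Actb* gave 1351 higher and 486 lower. *Gapdh* can also set the scale for a limit on expression. In WT RPE 6790 genes had a mean of at least 50% of that of the *Gapdh* locus, but only 126 had at least 50% of that of *Gapdh* with near copies. In rd6 the numbers were 6050 and 94. For genes outside the set of enzymes no copies were added, so 126 and 94 set a family against single loci.

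The other genes of the pathway were read from lists for 6 branches, of which 63 genes were tested. Of these 24 rose and 5 fell, 46.0% in all, beside 11.4% and 11.6% of all genes. With the muscle score as a further term in limma, 7 were higher and 3 lower, 11.1% and 4.76% of the 63 genes beside 4.54% and 3.5% of all genes, the former *Tpi1*, *Ldhd*, *Pdk1*, *Pdha1*, *Hif1a*, *Pygb* and *Pygl* and the latter *Slc2a1*, *Slc16a1* and *Taldo1*, of which *Ldhd* and *Pygb* are named after their values were seen. Among other glycolytic enzymes 7 of 13 rose and 2 fell, with a median change of 0.40. *Tpi1*, triose phosphate isomerase and the most abundant of them by the mean over the 12 libraries, rose by 0.62 (q = 9.65e-05) with no overlap of the groups. The largest rises were those of *Hk3*, a low-abundance hexokinase (1.41, q = 0.00416, from 13.9 to 36.1 normalized counts), *Pgam2*, the muscle phosphoglycerate mutase (0.89, q = 0.0276), and *Eno3*, the muscle enolase (0.75, q = 0.0128). *Hkdc1*, a hexokinase-like enzyme, and *Eno1*, the general enolase, fell by 0.46 (q = 0.00642) and 0.36 (q = 0.0168) on the log2 scale. In WT alone *Eno1*, at 10905 normalized counts, was more abundant than *Tpi1* at 8067. Muscle markers moved with some of these genes, and in the fit with the muscle score *Pgam2* was at 0.016 (q = 0.962), *Eno3* at 0.13 (q = 0.482) and *Tpi1* at 0.48 (q = 0.00807). *Hk3* was at 1.41 (q = 0.0679) there. Microglia and macrophage markers, with a median change of 2.81, moved with genotype too, but no fit held a score of them. Their part in the change of *Hk3* and of the other genes was not tested.

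Transporters of glucose, lactate and pyruvate went both ways, with 4 of 11 higher, 2 lower and a median of -0.13. *Slc2a1*, the main glucose transporter of the RPE, fell from 55671 to 38278 normalized counts (-0.53, q = 0.000561), and *Slc16a1*, a monocarboxylate transporter for lactate, from 48483 to 25617 (-0.93, q = 0.000201). For both, every rd6 library lay below every WT library. The lactate and pyruvate transporters *Slc16a3* (from 111 to 218 normalized counts, 1.00, q = 0.00267) and *Slc16a7* (from 183 to 276, 0.57, q = 0.0215) rose. The sugar transporter *Slc2a12* rose too (from 5339 to 9214, 0.74, q = 0.00981). In the fit with the muscle score these were at 0.55 (q = 0.148), 0.71 (q = 0.0749) and 0.74 (q = 0.112). *Slc16a8*, the most abundant monocarboxylate transporter of the list, had 57276 in WT and 50365 in rd6 (-0.17, q = 0.293). *Bsg*, the most abundant gene of the list, which encodes the partner that carries lactate transporters to the membrane, changed by -0.29 (q = 0.0681).

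Of 18 genes that control the flux of glycolysis and pyruvate, 7 rose and 0 fell, with a median of 0.11. *Pdk1*, the kinase that switches off pyruvate dehydrogenase, rose from 932 to 2861 normalized counts (1.61, SE 0.11, q = 4.44e-07), the largest rise of these lists. *Pfkfb3*, which makes the activator of phosphofructokinase, rose by 0.70 (q = 0.0230), *Pdha1*, a subunit of pyruvate dehydrogenase itself, by 0.52 (q = 1.41e-06), and *Hif1a*, the oxygen-regulated transcription factor and the most abundant gene of the list, by 0.45 (q = 0.00123). In glycogen metabolism 5 of 10 rose and 0 fell (median 0.20), led by the liver and muscle glycogen phosphorylases *Pygl* (0.47, q = 0.000175) and *Pygm* (0.37, q = 0.00486) and the glycogen synthase *Gys1* (0.34, q = 0.00259). In the fit with the muscle score *Pygl* was at 0.42 (q = 0.0116), *Pygm* at 0.18 (q = 0.234), *Gys1* at 0.29 (q = 0.0813) and *Pfkfb3* at 0.64 (q = 0.227). In gluconeogenesis 1 of 3 rose (median 0.25), *Pcx*, pyruvate carboxylase (0.25, q = 0.0297), which did not pass in the fit with the muscle score (q = 0.197). In the pentose phosphate pathway 0 of 8 rose and 1 fell (median -0.07), *Taldo1*, the transaldolase (-0.51, q = 0.00156).

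**Figure D5:**
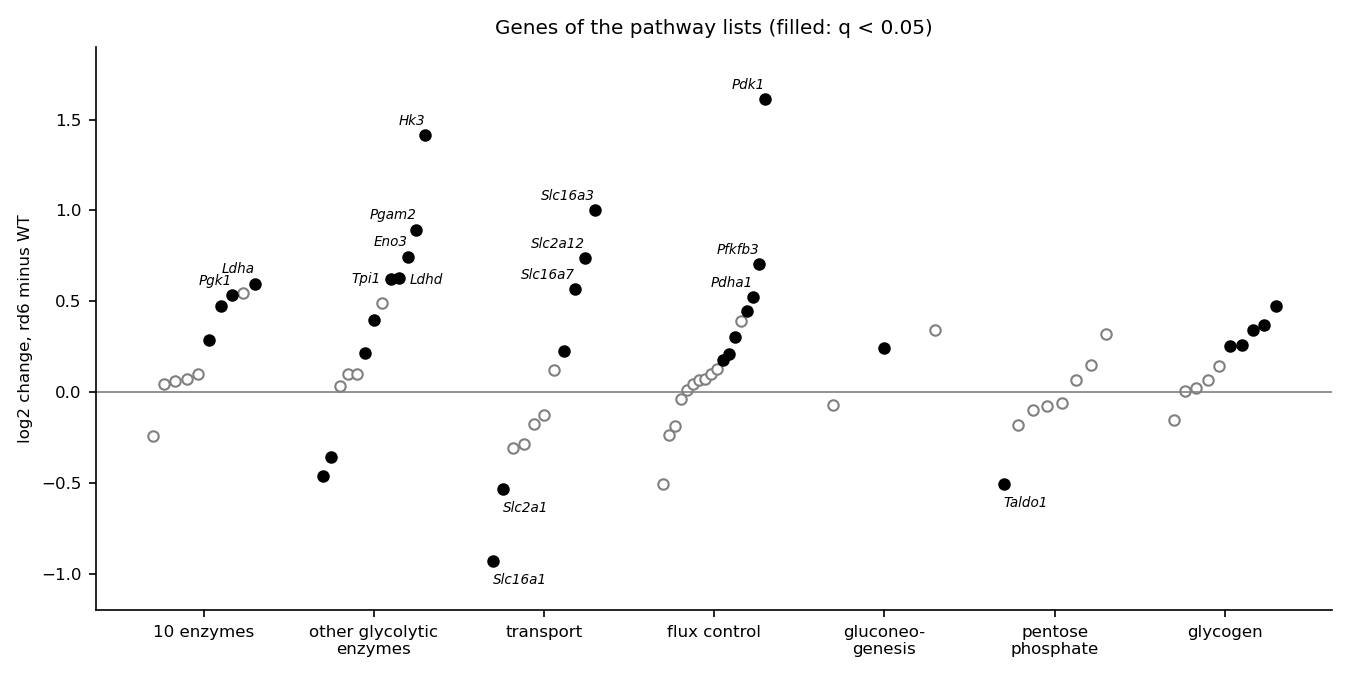
Change (vertical axis, log2, rd6 minus WT) of the tested genes of the 10 enzymes and of 6 lists of other pathway genes, ordered by change within each list, filled where q < 0.05 and named where also at least 0.5 in size. Of the 63 genes in the lists, 24 are filled above 0 and 5 below, with *Pdk1* the highest at 1.61 and *Slc16a1* the lowest at -0.93.

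Since several enzymes rose together, the 250 bases before each start site in RefSeq (GRCm38.p6) were searched for ACGTG on both strands. This is a form of the core of the elements that hypoxia-inducible factors bind, and the form GCGTG was not counted. Overlapping matches were counted as 1 place. All 10 enzymes matched, with 15 start sites. Of these 15, 6 held the motif, at 5 enzymes (*Hk2*, *Aldoa*, *Pgk1*, *Pkm* and *Ldha*), beside 16.6% of 32851 promoters. The *Aldoa* start sites among the 6 lie 76 bases apart and hold the same place, which is thus counted more than once. The share of 16.6% is per start site, whereas the count of enzymes takes any of their start sites. At the start site nearest that of the principal transcript, 3 of the 10 enzymes held the motif (*Hk2*, *Aldoa* and *Pgk1*), and *Pkm* and *Ldha* held it only at start sites 859 and 1327 bases away. *Gapdh* and *Ldhb* did not hold ACGTG in this window, though GCGTG, which was not counted, occurs in the windows of both. More than 1 place was found for *Ldha* (3, at the upstream one of its start sites), *Pgk1* (2) and *Hk2* (2), while 2.0% of all promoters held 2 or more. These 3 promoters are shown, in the direction of transcription and with the motif in capitals, at chr7:46845554-46845803 (plus strand), chrX:106186850-106187099 (plus strand) and chr6:82774455-82774704 (minus strand).
Ldha: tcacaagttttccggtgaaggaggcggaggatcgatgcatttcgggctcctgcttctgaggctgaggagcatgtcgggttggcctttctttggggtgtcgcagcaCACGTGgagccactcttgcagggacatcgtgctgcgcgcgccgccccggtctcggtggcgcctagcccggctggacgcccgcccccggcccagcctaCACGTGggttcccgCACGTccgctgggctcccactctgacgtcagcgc
Pgk1: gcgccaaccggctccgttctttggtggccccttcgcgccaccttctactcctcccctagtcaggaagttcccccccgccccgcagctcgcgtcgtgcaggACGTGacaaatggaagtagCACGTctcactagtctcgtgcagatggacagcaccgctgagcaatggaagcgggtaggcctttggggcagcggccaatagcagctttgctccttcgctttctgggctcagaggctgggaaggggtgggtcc
Hk2: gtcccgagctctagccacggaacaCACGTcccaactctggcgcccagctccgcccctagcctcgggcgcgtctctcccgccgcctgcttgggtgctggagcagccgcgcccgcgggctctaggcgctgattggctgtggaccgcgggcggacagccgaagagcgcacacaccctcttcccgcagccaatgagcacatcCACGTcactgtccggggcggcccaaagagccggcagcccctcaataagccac

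The genes most like *Gapdh* were found by Pearson r of log2 levels over the 12 libraries after the mean of each genotype was removed. The highest were *Bscl2* (r = 0.96), which encodes seipin, and the *Gapdh* copies *Gm12070* (0.95), *Gm7336* (0.94), *Gm3534* (0.93) and *Gm2574* (0.93), and 9 of the 50 highest of 17767 genes were *Gapdh* copies. All points share libraries, depth and, for the copies, sequence. Between the enzymes themselves the highest such correlations were those of *Ldhb* with *Aldoa* (0.90) and with *Pfkl* (0.89), and of *Gpi1* with *Pkm* (0.89). *Hk2* was most like *Ldha* (0.65), while *Gapdh* was most like *Aldoa* (0.82).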

How the data were processed

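Total RNA of RPE pooled from both eyes was sequenced from 6 WT and 6 rd6 mice after ribosomal depletion with a stranded kit. The authors aligned reads to mm10, counted them on genes with Rsubread at its standard settings and divided the counts by DESeq2 size factors. The deposited signal is this normalized count, with no version of Rsubread or DESeq2 given in the sources used here. The authors' own DESeq2 columns (log2 fold change with its standard error, Wald score, p-values) were deposited too and not used. All values in each library were whole multiples of 1 read (100% within 0.01), so reads were recovered.

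The main test was limma 3.58.1 (lmFit, eBayes with trend, R 4.3.3) on log2(value + 1) over genes averaging 10 or more, genotype being the only term, and a call needed q < 0.05. edgeR 4.0.16 (quasi-likelihood) and DESeq2 1.42.0 were run on recovered reads. The fit was also run on simulated counts with known changes, and the outcome is not reported here. Near copies were transcripts of other loci in GENCODE M21 with at least 90% identity over 200 bases (blastn 2.17.0), added to an enzyme where they shared a window of 100 bases. Other alternatives were pseudocounts of 0.1 and 10, other filters and rescalings, the replicate number as a block, rod and muscle scores as covariates and leaving out each library. Copies, *Gapdh* or *Actb* scaling and the muscle score were added after seeing the data. Ratios were tested by exact permutation, and p-values of ratios are unadjusted, since the members and lists were chosen with earlier results of these data known. Some chosen genes and a sequence are not reported here, 3 reference genes among them, so counts of reference genes are over the other 17. Named were all 10 enzymes and these reference genes, the called genes with the 3 largest rises and falls and the most abundant gene of each pathway list, the 5 genes most like *Gapdh* and the most abundant markers. *Pfkm*, *Pfkp*, *Slc16a8*, *Pgk1-rs7*, *Gm5537*, the other *Gapdh* copies, *Best1* and *Iffo1* were chosen after their values were seen. Depth, 28907262 to 33152725 reads per library, covers counting error only.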

Additional observations from a re-analysis of the deposited data

Results flagged for a closer look

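In 5 of 62 groups of 6 libraries tested, the 10 enzymes with and without near copies and the other reference genes in each genotype, 1 library stood apart by Dixon's criterion (the gap to the nearest library divided by the range of the group), which chance alone gives in about 1 of 20 groups. *Pfkl* in WT had a gap of 0.710 of its range, with WT replicate 4 at 6311 normalized counts and the others at 7897 to 8545. *Ldha* in rd6 had a gap of 0.679, with rd6 replicate 5 at 6539 and the others at 5597 to 5899. *Aldoa* in rd6 had a gap of 0.627, with rd6 replicate 6 at 57746 and the others at 47003 to 51014. Among reference genes, *Ywhaz* in rd6 had a gap of 0.816, with rd6 replicate 5 at 5356 and the others at 4459 to 4623, and *Tubb5* in WT had a gap of 0.675, with WT replicate 4 at 4764 and the others at 3730 to 4066. WT replicate 4 lay farthest from its group over all genes, and rd6 replicate 5 had the highest rod score of its group, 11.4 against 9.68 to 10.1.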

How the results depend on the processing

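In limma with genotype only, 2024 genes were higher and 2062 lower in rd6, as were 24 and 5 of the other pathway genes. Among settings that keep all libraries, 221 values kept their direction and their side of the test, beside 22 counts that moved by over 1.5 times or, for a spread, by over its error, 9 values that reversed, 5 that passed only there and 15 that no longer passed. Pseudocounts, filters, TMM or upper-quartile rescaling and edgeR changed no call of the 10 enzymes, and DESeq2 changed only that of *Pfkl* (-0.24, adjusted p = 0.0443).

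The muscle score as a term left 806 genes higher, 622 lower and 7 and 3 pathway genes, with *Gapdh* at 0.10 (q = 0.609) and *Ldhb* at 0.40 (q = 0.0779). The rod score brought *Hk2* to 1.10 (q = 0.00121), *Pfkl* to -0.35 (q = 0.0339) and *Gapdh* to 0.31 (q = 0.0634). Scaling to *Gapdh* left 803 genes higher and 6586 lower and 7 and 15 pathway genes, turned *Gpi1* to -0.23, *Aldoa* to -0.24 and *Pkm* to -0.21 (q = 0.0246, 0.0150 and 0.0259), and put *Pfkl* at -0.53 (q = 0.000574), *Ldha* at 0.31 (q = 0.0564) and *Ldhb* at 0.19 (q = 0.0658). Scaling to *Gapdh* with near copies left 959 and 6063 genes and 9 and 15 pathway genes, with *Gpi1* at -0.17, *Aldoa* at -0.19, *Pkm* at -0.16, *Pfkl* at -0.47 (q = 0.000682) and *Gapdh* at 0.058 (q = 0.372). Scaling to *Actb* left 486 genes lower and 11 and 2 pathway genes, with *Gapdh* at 0.35 (q = 0.0692), and as the denominator of ratios *Actb* left 0 enzymes lower and gave *Gpi1* 0.12, *Aldoa* 0.11 and *Pkm* 0.14. With near copies *Gapdh* fell against 3 reference genes, and its SD was 0.16 in place of 0.21. The cause of these shifts was not tested.

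The replicate numbers do not pair the samples, since same-numbered deviations correlated at -0.743 to 0.315 and 0 of 6 matched best with their own number. Adding the number as a block gave 1453 calls upward and 1489 downward. The block changed no call of the 10 enzymes (*Gapdh* q = 0.0378), but *Gapdh* with near copies reached 0.23 (q = 0.0783), 0 enzymes were higher and 2 lower relative to *Gapdh* in place of 3 and 4, and *Gapdh* rose against 2 and fell against 0 reference genes in place of 7 and 1.

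Leaving out each library in turn gave 1633 to 2431 genes higher and 1590 to 2301 lower, and 19 to 27 and 5 to 7 pathway genes. The changes ran from 0.41 to 0.71 for *Hk2*, -0.31 to -0.21 for *Pfkl*, 0.24 to 0.33 for *Gapdh* and 0.20 to 0.26 for *Gapdh* with near copies. Relative to *Gapdh*, 1 to 2 enzymes were higher and 4 to 5 lower, the count of 1 arising without WT replicate 2, WT replicate 3, rd6 replicate 3 or rd6 replicate 4, and *Gapdh* rose against 7 to 8 reference genes and fell against 1 to 2 (2 without rd6 replicate 5).

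Where an interval given includes 0, a difference of a size within it was not excluded with 6 libraries per group. Counts at loci with near-identical copies depend on how the authors' counting placed shared reads, for which the study's methods name only standard settings of Rsubread. Muscle and rod RNA moved with genotype. So did the markers of microglia and macrophages and of endothelium, for which no score was fitted.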
